A study of Mus musculus with 2 samples.

Results

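The 10 genes described here encode proteins that set how stable neuronal microtubules are. They are the stathmins Stmn1, Stmn2, Stmn3 and Stmn4, the lattice binders Map1a, Map1b, Map2 and Mapt, and the doublecortin proteins Dcx and Dclk1. They were chosen by gene symbol, and all 10 were found among the 43346 Ensembl genes of both deposited gene tables. RNA came from hindbrain of B6NCrl mouse embryos at embryonic day 12.5, with males and females pooled and no treatment or engineered allele given in the labels. Replicate 1 was a pool of 120 embryos and replicate 2 a pool of 88 embryos, so spread between single embryos was averaged out before measurement. Both libraries are biological replicates of 1 group, and every test below compares 2 libraries, not 2 conditions. Each library started from 10 ng of RNA longer than 200 nt with ERCC spike-in RNAs added. The tables sum to 31633169 expected counts for replicate 1 and 29766460 for replicate 2.

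Microtubules are hollow polymers of tubulin that grow and shrink at their ends. Stathmins bind free tubulin and promote disassembly, whereas MAP2, tau (encoded by Mapt) and the MAP1 proteins bind along the polymer and stabilise it. Doublecortin and its relative DCLK1 bind between protofilaments and are best known from migrating and differentiating neurons. At the embryonic age studied, the hindbrain holds dividing progenitors beside neurons that are extending their first axons. In bulk tissue, fewer cells of a type and less RNA per cell cannot be told apart.

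The tissue label was checked against marker genes. All 10 hindbrain markers, among them Meis1 and Hoxb5, reached 1 TPM (a level corrected for transcript length, with 1 total for every library) in both libraries, against 2 of 6 forebrain markers, Lhx2 and Emx2. Neuron markers summed to 2681 and 2798 TPM in replicates 1 and 2, and progenitor markers to 2886 and 2651 TPM. None of the neuron or progenitor markers was at 0. Markers of mesenchyme, erythroid cells and cranial ganglia were also present, with 7 of 7, 7 of 7 and 10 of 10 genes at 1 TPM or more.

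Stmn1, a stathmin found in dividing as well as differentiating cells, was the most abundant member by a wide margin. The gene lies on the plus strand at chr4:134468320-134473843 (mm10, as are all coordinates here). Its level was 3737 TPM in replicate 1 and 3854 TPM in replicate 2, or 3796 ± 82.7 TPM (SD, n = 2). That placed it at rank 16 and rank 13 of all Ensembl genes. Stmn1 alone made up 63.8% and 63.2% of the summed TPM of the 10 genes.

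The other stathmins carry a membrane anchor and are largely neuronal. Stmn3 stood at 411.5 and 406 TPM, and Stmn2, also called SCG10 and known from growth cones, at 382 and 384 TPM. These neighbours were close, with Stmn3 1.08-fold and 1.05-fold above Stmn2, but their values did not overlap. Stmn4 was lower, at 127 and 138 TPM. On mm10 these genes lie at chr3:8509360-8561606 (Stmn2, plus strand), chr2:181306459-181314500 (Stmn3, minus strand) and chr14:66344296-66361680 (Stmn4, plus strand). Stmn1 exceeded Stmn3 by 9.08-fold and 9.50-fold in replicates 1 and 2.

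Among the lattice binders, Map1b, the MAP1 protein of growing axons, was highest at 440 and 483 TPM. Map2, which marks dendrites in mature neurons, followed at 296 and 325 TPM. Tau, concentrated in axons, was at 189 and 198 TPM. Map1b exceeded Map2 by the same factor in each library, 1.49-fold in replicate 1 and 1.49-fold in replicate 2. Map1a, the relative of Map1b that is known to dominate in adult brain, was the lowest of all 10 genes at 8.32 and 11.6 TPM. These genes lie at chr13:99421446-99516540 (Map1b, minus strand), chr1:66175273-66442583 (Map2, plus strand), chr11:104231390-104332090 (Mapt, plus strand) and chr2:121289600-121310832 (Map1a, plus strand). The summed level of the 4 lattice binders was 933 and 1018 TPM, against 4657 and 4783 TPM for the stathmins.

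Doublecortin (Dcx) stood at 178 and 213 TPM, and Dclk1, which joins doublecortin domains to a kinase, at 84.9 and 88.1 TPM. Dcx was 2.09-fold and 2.41-fold above Dclk1. Dcx lies at chrX:143855842-143933311 on the minus strand and Dclk1 at chr3:55242364-55539068 on the plus strand. The full order of mean levels was Stmn1, Map1b, Stmn3, Stmn2, Map2, Dcx, Mapt, Stmn4, Dclk1 and Map1a. Of the 9 neighbouring pairs in this order, only Dcx and Mapt overlapped, and Mapt was the higher of them in replicate 1 and the lower in replicate 2. These differences between genes were not tested, and overlap of the values is the measure of separation given.

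**Figure D1:**
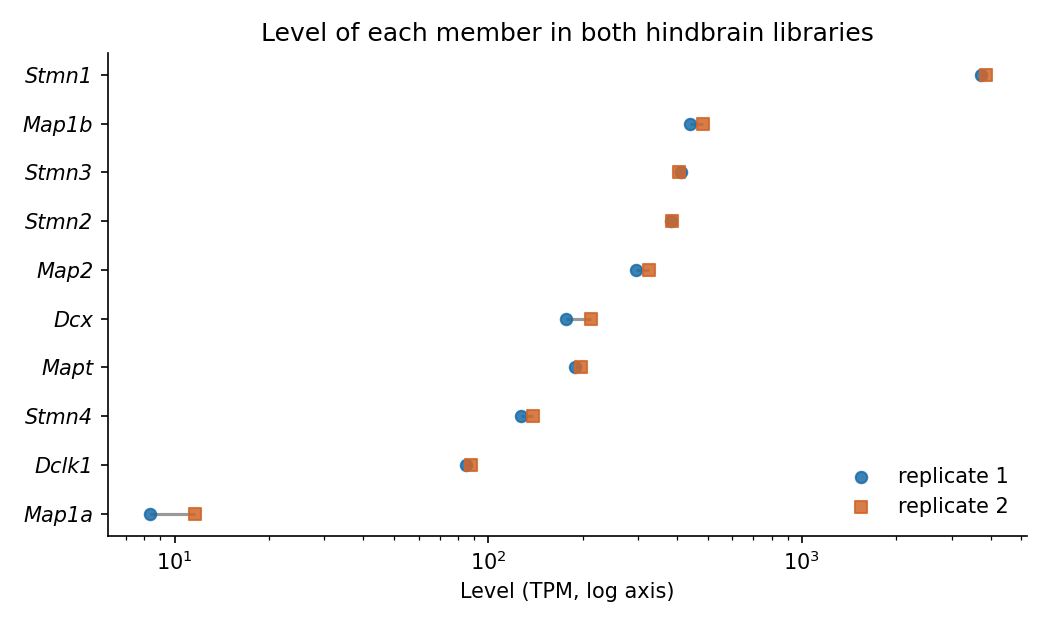
The level of each of the 10 genes in TPM on a log axis, with a circle for replicate 1 and a square for replicate 2 and a line joining them. Stmn1 stands at 3737 and 3854 TPM, far to the right of Map1b at 440 and 483 TPM, and Map1a at 8.32 and 11.6 TPM lies alone on the left.

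Isoforms were described from the transcript tables, in which each transcript's share of its gene is given as a percent of TPM. The first choice described is a 93 nt coding exon of Map2 at chr1:66431527-66431619, plus strand of mm10, which encodes an added microtubule-binding repeat. It is shown 5′ to 3′ from the GENCODE transcripts because the quantified transcripts offer both choices for it, with no base marked.
Map2 93 nt exon: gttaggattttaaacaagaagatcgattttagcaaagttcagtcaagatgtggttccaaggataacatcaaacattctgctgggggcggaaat
Transcripts holding this exon made up 1.53% and 1.39% of Map2 TPM in replicates 1 and 2. Among the quantified transcripts that join both flanking exons, 4 include the exon and 7 skip it, and those that include it held 2.44% and 2.15% of the TPM of these 11 transcripts. By these assigned shares the exon was rare in both libraries, but the depth of its junctions is not known.

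The tau transcripts were led by a pair of forms. Mapt-205, of 390 codons, held 51.0% and 52.5% of Mapt TPM, and Mapt-204, of 372 codons, held 32.2% and 30.5%. They differ in a 54 nt exon at chr11:104307881-104307934, plus strand, shown because it separates the 2 leading forms, with no base marked.
Mapt 54 nt exon: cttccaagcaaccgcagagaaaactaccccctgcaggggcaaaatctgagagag
By share of expected counts the order turned around: Mapt-204 held 64.4% and 62.6%, and Mapt-205 held 28.3% and 29.8%. The annotated transcripts also differ after the coding sequence, with 251 nt in Mapt-205 and 3906 nt in Mapt-204 (stop codon included). A longer transcript yields more fragments per molecule, and most Mapt fragments were assigned to the form with the long end. In these values the 54 nt exon and the length of the 3′ end cannot be told apart.

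Other tau exons were rarer. The first of a pair of 87 nt exons near the N-terminus, which lengthen the projecting part of the protein, was held by transcripts with 10.0% and 10.5% of Mapt TPM, or 5.6% and 6.0% of Mapt counts. The longest coding exon of Mapt, 759 nt at chr11:104298498-104299256 and known from the big tau of peripheral neurons, was held by 2.05% and 2.00%. Markers of cranial ganglia were present in these pools, and their part in the big tau signal was not tested.

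The leading coding form of Map2 was a short one. Map2-201, Map2-205 and Map2-202 share 1 coding sequence of 467 codons, the size of the juvenile protein MAP2c, and together held 48.4% and 49.2% of Map2 TPM, or 65.2% and 64.7% of Map2 counts. Among them Map2-201 held 36.7% and 42.1%, Map2-205 held 6.04% and 4.85%, and Map2-202 held 5.66% and 2.24%. Their sum moved by less than their parts did. Map2-204, of 1828 codons, encodes the high molecular weight protein and was the 1 quantified transcript to hold the 3741 nt exon at chr1:66412407-66416147. It held 12.0% and 12.5% of Map2 TPM, and 19.4% and 19.7% of Map2 counts. The annotated transcripts also differ after the coding sequence, with 184 nt in Map2-204 and 3577 to 3579 nt in the 3 short ones (stop codon included). The part of this 3′ end difference in the shares of the short and long forms was not tested.

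The second most abundant Map2 transcript by TPM was Map2-218, an incomplete model of 546 nt, at 20.1% and 18.1%. It held only 2.36% and 2.08% of Map2 counts. A level per length is high for a short model with few fragments. With noncoding transcripts left out, the high molecular weight form was at 13.9% and 14.3% of Map2 TPM. Map2-218 is annotated as protein coding and stayed in that total. Map2 overlaps the antisense gene Gm10558, at 19.4 and 17.8 TPM. Whether the libraries kept strand is not stated, so reads in the overlap may belong to either gene.

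**Figure D2:**
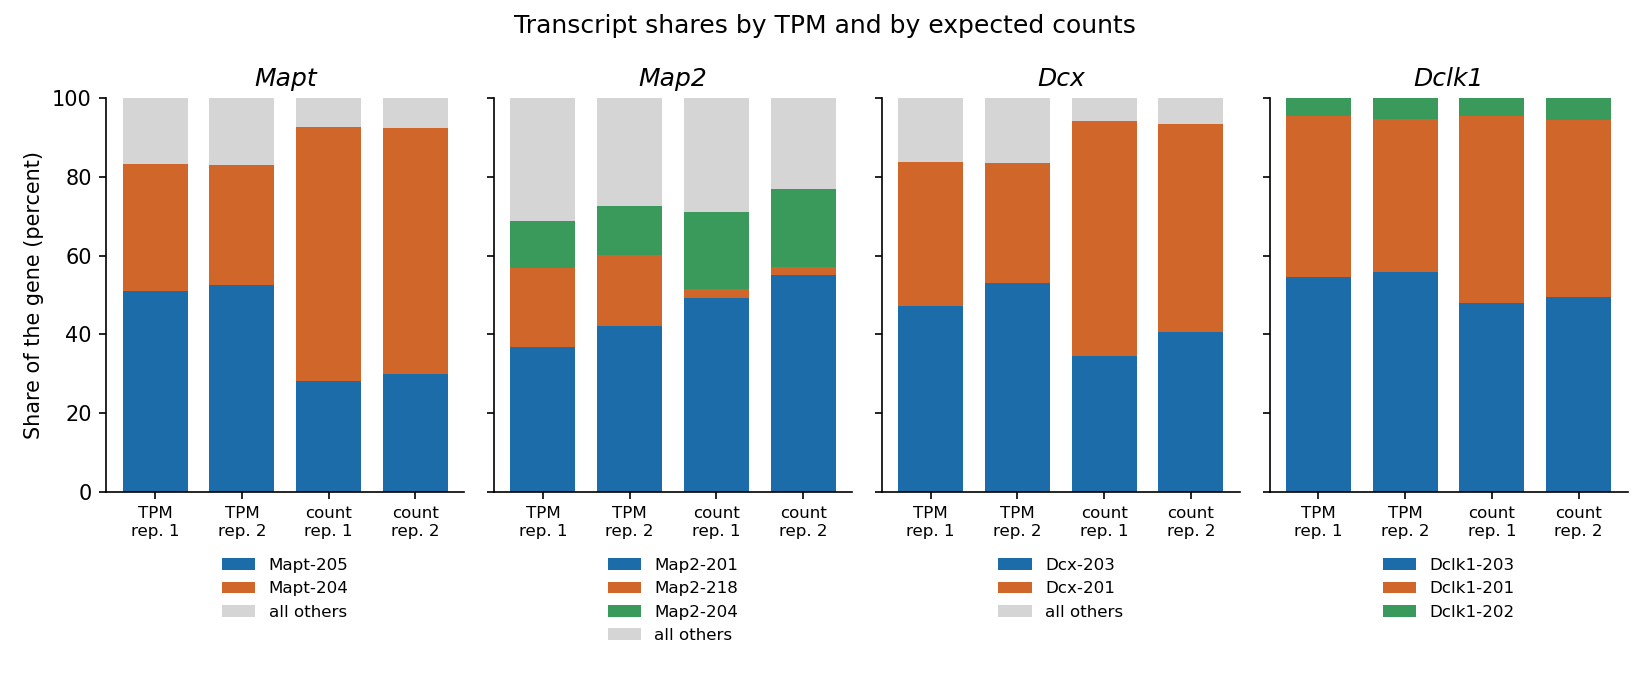
Stacked bars of transcript shares, in percent of the gene, for Mapt, Map2, Dcx and Dclk1, by TPM and by expected counts in replicates 1 and 2. Within each unit the 2 libraries look alike, whereas Mapt-205 leads by TPM (51.0% and 52.5%) and Mapt-204 by counts (64.4% and 62.6%).

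Doublecortin transcripts differ by short exon ends that add or remove a few amino acids. The ends of 2 of the coding exons of Dcx are shown 5′ to 3′ in the direction of the gene, with the bases found only in the longer choice in capitals. The first covers chrX:143875755-143875796 and the second chrX:143870607-143870636.
Dcx 15 nt choice: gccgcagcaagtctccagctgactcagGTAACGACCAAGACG
Dcx 3 nt choice: agccctggaagtctgcggaagcacaagGTA
In both, the added bases begin with the letters GTA. The 15 nt end was held by transcripts with 84.0% and 85.2% of Dcx TPM, and 94.2% and 94.4% of Dcx counts. With noncoding transcripts left out, the 15 nt end was at 91.9% and 92.4% of TPM. The 3 nt end was held by 36.8% and 32.2% of TPM, but by 59.8% and 53.7% of counts.

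Dcx-203, of 365 codons and without the 3 nt end, was the leading transcript by TPM at 47.3% and 53.0%. Dcx-201, of 366 codons, followed at 36.5% and 30.6%. By counts Dcx-201 led, with 59.6% and 52.7% against 34.4% and 40.7% for Dcx-203. As in Mapt, the transcript that led by counts has the longer annotated 3′ end, 7712 nt in Dcx-201 against 2843 nt in Dcx-203. In absolute terms Dcx-201 stood at 64.8 and 65.1 TPM, whereas Dcx-203 stood at 83.9 and 113 TPM. Most of the higher Dcx level in replicate 2 was assigned to Dcx-203.

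Dclk1 makes proteins with the doublecortin end, the kinase end or both. Dclk1-203, of 363 codons and with the doublecortin end alone, held 54.4% and 55.9% of Dclk1 TPM. Dclk1-201, of 756 codons and with both ends, held 41.0% and 38.9%. Dclk1-202, of 422 codons, begins far inside the gene and lacks most of the doublecortin end. It held 4.55% and 5.28%, or 3.86 and 4.66 TPM.

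Taking the full coding sequence in equal parts, transcripts with the doublecortin end held 95.5% and 94.7% of Dclk1 TPM, and those with the kinase end held 45.6% and 44.1%. Only 3 Dclk1 transcripts were quantified, whereas the later GENCODE M21 annotation lists 15, so other Dclk1 forms were not separated. Dclk1-202 starts at a separate site, and both starts have RefSeq promoter entries, 162 nt and 30 nt before the starts of Dclk1-203 and Dclk1-202. The 250 bases before each are shown on the plus strand (mm10), with CG dinucleotides in capitals, at chr3:55242114-55242363 for the upstream start and chr3:55461478-55461727 for the downstream start.
Dclk1 upstream: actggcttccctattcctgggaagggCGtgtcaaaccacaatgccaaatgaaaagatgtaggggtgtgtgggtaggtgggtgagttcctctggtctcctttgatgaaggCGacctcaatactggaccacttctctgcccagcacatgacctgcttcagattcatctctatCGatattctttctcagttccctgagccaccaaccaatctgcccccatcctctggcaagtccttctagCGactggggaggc
Dclk1 downstream: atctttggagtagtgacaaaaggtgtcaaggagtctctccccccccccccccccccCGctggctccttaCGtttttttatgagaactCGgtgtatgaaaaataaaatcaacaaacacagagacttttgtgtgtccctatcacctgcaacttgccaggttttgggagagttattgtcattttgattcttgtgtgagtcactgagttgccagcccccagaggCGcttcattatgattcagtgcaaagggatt
Each stretch holds 4 CG dinucleotides (letters CG; a CG reads the same on both strands). In the RefSeq windows of 300 bases (250 before and 50 after a start), the 2 Dclk1 windows held 5 and 6 CG, against a median of 7 over 32851 windows. Such windows exist for 6 of the 10 genes. Map2 had 37 CG, Map1a 27 and Map1b 23, whereas Stmn3 had 6 and the 2 Dcx windows 3 each. Map1b, the highest lattice binder, and Map1a, the lowest, both had windows above the median.

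Stmn4 was the stathmin with the most even mix of transcripts. Stmn4-201, of 189 codons, held 61.1% and 56.5% of Stmn4 TPM, Stmn4-203, of 216 codons, 24.0% and 25.0%, and Stmn4-202, of 176 codons, 12.0% and 12.3%. Stmn4-203 carries an added 81 nt coding exon at chr14:66356269-66356349, plus strand, shown because it makes the longer protein, with no base marked.
Stmn4 81 nt exon: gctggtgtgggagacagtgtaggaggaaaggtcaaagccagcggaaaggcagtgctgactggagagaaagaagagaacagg
Transcripts with this exon held 24.0% and 25.6% of Stmn4 TPM. The 3 forms are near-equal in length, and their shares by counts, for example 62.5% and 59.0% for Stmn4-201, differed little from those by TPM. The other stathmins had 1 dominant transcript each, Stmn1-201 at 98.3% and 98.0%, Stmn2-201 at 95.9% and 97.5%, and Stmn3-201 as the sole quantified transcript.

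**Figure D3:**
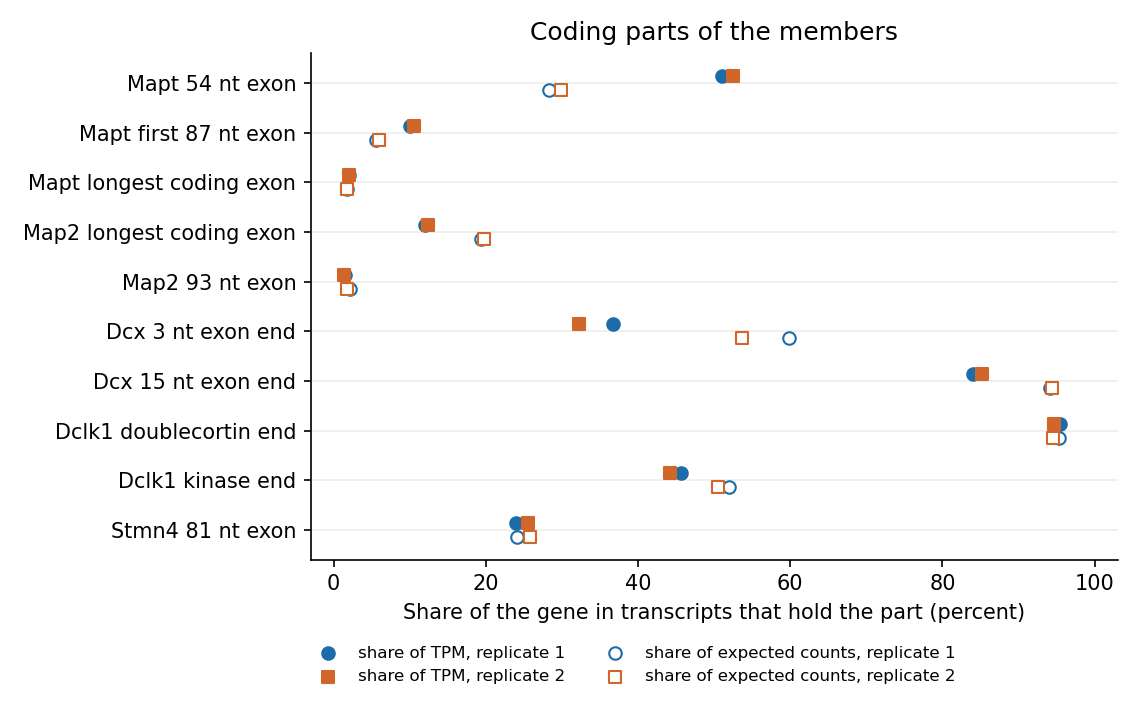
The share of each gene, in percent, that lies in transcripts holding a given coding part, with filled symbols for TPM and open symbols for expected counts, circles for replicate 1 and squares for replicate 2. Filled and open symbols lie together for the Dclk1 doublecortin end and the Stmn4 exon, and apart for the Mapt 54 nt exon (51.0% and 52.5% by TPM, 28.3% and 29.8% by counts) and the Dcx 3 nt end.

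Map1a gave the least certain level. Map1a-202, of 2776 codons, held 45.2% and 46.8% of its TPM. Map1a-201, of 3014 codons, held 26.8% in replicate 1 and 12.9% in replicate 2. The short noncoding Map1a-204, of 411 nt, held 24.7% and 31.9%. Transcripts under 1 kb took 28.0% and 40.4% of Map1a TPM but 1.15% and 2.05% of its counts, which were 1227 and 1288. The gene's TPM was 1.40-fold higher in replicate 2, whereas its coding transcripts went from 5.99 to 6.93 TPM, a ratio of 1.16. Map1b, quantified as 1 transcript, exceeded the coding transcripts of Map1a by 73.4-fold and 69.7-fold. Map1a also overlaps Ppip5k1 on the opposite strand, at 12.5 and 12.6 TPM, and the strand of the reads is not known.

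Across libraries, the leading transcript by TPM was the same in both for all 10 genes, and for 92.4% of 8396 genes with several transcripts at 5 TPM or more in both libraries. Its share moved by more than 10 percentage points in 0 of the 10, against 12.9% of the same 8396 genes. This background starts at 5 TPM and was not matched to the members, which apart from Map1a were at 84.9 TPM or more. The largest shifts of a leading transcript were 5.72 points for Dcx-203 and 5.34 points for Map2-201, and the median over the background genes was 3.06 points. Stmn3 and Map1b have 1 quantified transcript each and could not shift. A transcript that does not lead can still shift further, as the 13.9-point change of Map1a-201 shows.

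The difference between the libraries was then set against counting error and against the spread between these samples. By an exact binomial test on TMM-scaled counts, which allows for counting error alone, 20.4% of 19209 tested genes differed (adjusted p below 0.05), 10.7% higher in replicate 2 and 9.68% lower. Of the members, 5 were higher in replicate 2 and 0 lower, against 0 higher and 10 lower when the ERCC spike-ins set the scale. On that scale 1.7% of all tested genes were higher and 66% lower. Genes with at least as many counts as the lowest member, 2515 over both libraries, were called in 34.0% of 5975 cases. With so many counts, small differences pass this test.

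The called members were 1 stathmin, 3 lattice binders and Dcx. Dcx had 18496 and 19369 counts before scaling, a log2 ratio of 0.17 after it (exact binomial test, adjusted p = 1.97e-27). Map2 had 21351 and 22109 counts and a log2 ratio of 0.15 (exact binomial test, adjusted p = 1.06e-25). Map1b had 98063 and 99373 counts and a log2 ratio of 0.12 (exact binomial test, adjusted p = 6.46e-74). These 3 genes differed by 1.09-fold to 1.12-fold. Map1a had a log2 ratio of 0.17 (exact binomial test, adjusted p = 0.019) and Stmn1, with 67799.9 and 64418.3 counts, only 0.03 (exact binomial test, adjusted p = 0.0051). Stmn2, Stmn3, Stmn4, Mapt and Dclk1 did not pass, with log2 ratios of 0.02, -0.04, 0.08, 0.01 and 0.03.

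With the spread between the libraries allowed for, by edgeR's exact test with a common dispersion (a coefficient of variation of 9.02%), 1.57% of genes were called and 0 of the 10 members, each at an adjusted p of 1. This test called only 13 of the 5975 genes with 2515 or more counts over both libraries, so 0 of 10 is near that background. At an unadjusted p below 0.05 the same test had 0 members, with a lowest p of 0.365. The SD of the log2 ratio over the 5975 genes with 2515 or more counts was 0.13. Map1a, Map2 and Dcx lay beyond it, or 3 of 10, against 21.2% of those genes. The median log2 ratio of the members was 0.05 and that of all tested genes was 0.00. None of the 10 stood apart from the spread of these libraries by edgeR's test.

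**Figure D4:**
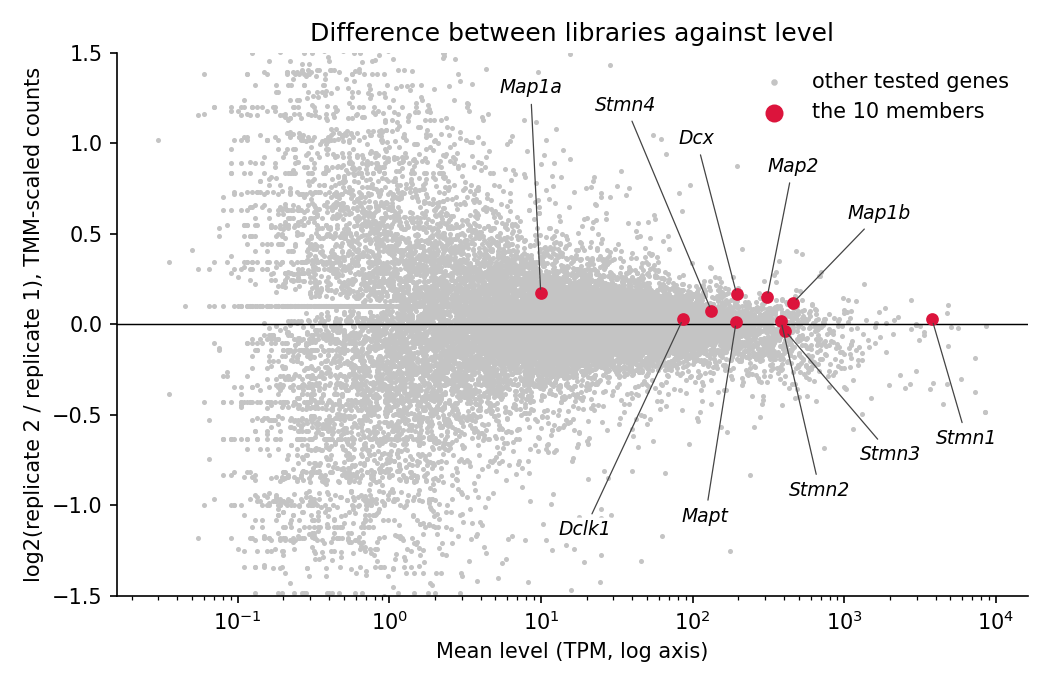
The log2 ratio of replicate 2 over replicate 1 after TMM scaling against mean TPM on a log axis, with all tested genes in grey and the 10 members in red. The members lie between -0.04 and 0.17, inside the grey band; 471 genes fall outside the axis limits of 1.5.

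Cell type markers also differed between the libraries, relative to a median of all genes that TMM places at 0.00 and spike-in scaling at -0.37. Under TMM, the exact binomial test called 10.7% of all tested genes higher and 9.68% lower. Of the 5975 genes with 2515 or more counts, it called 34.0% in either direction. On the TMM scale, neuron markers had a median log2 ratio of 0.09, with 6 of 10 higher and 2 lower in replicate 2 by the exact binomial test, among them Ina at 470 and 509 TPM (higher) and Tubb3 at 856 and 843 TPM (lower). Progenitor markers had a median of -0.11, with 0 of 10 higher and 4 lower, among them Fabp7 at 1304 and 1151 TPM. Cell cycle markers had a median of -0.08, with 5 of 8 lower. By edgeR's exact test, 0 genes of these 3 lists were called and 0 had an unadjusted p below 0.05. All 9 skeletal muscle markers were higher in replicate 2 by both tests, with a median log2 ratio of 2.22 and summed levels of 56.5 and 269 TPM. Mesenchyme markers were higher in 7 of 7 by the exact binomial test and in 0 by edgeR, where 2 had an unadjusted p below 0.05. Of 10 cranial ganglion markers, 5 were higher and 1, Sox10, lower, the last also by edgeR. The part of these cell types in the members' differences was not tested.

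The directions of the members depend on the scaling. Under scaling by the ERCC spike-ins the median log2 ratio of all genes was -0.37, and the 10 members lay between -0.41 and -0.20, all lower in replicate 2 by the exact binomial test. Such a scaling moves all genes by 1 amount, so the members' places relative to other genes stay as under TMM. There, 9 of 10 lay above 0, against 51.3% of the 5975 genes with 2515 or more counts. Spike-ins took 3.41% of counts in replicate 1 and 4.36% in replicate 2, and the labels give the same 10 ng of starting RNA for both.

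**Figure D5:**
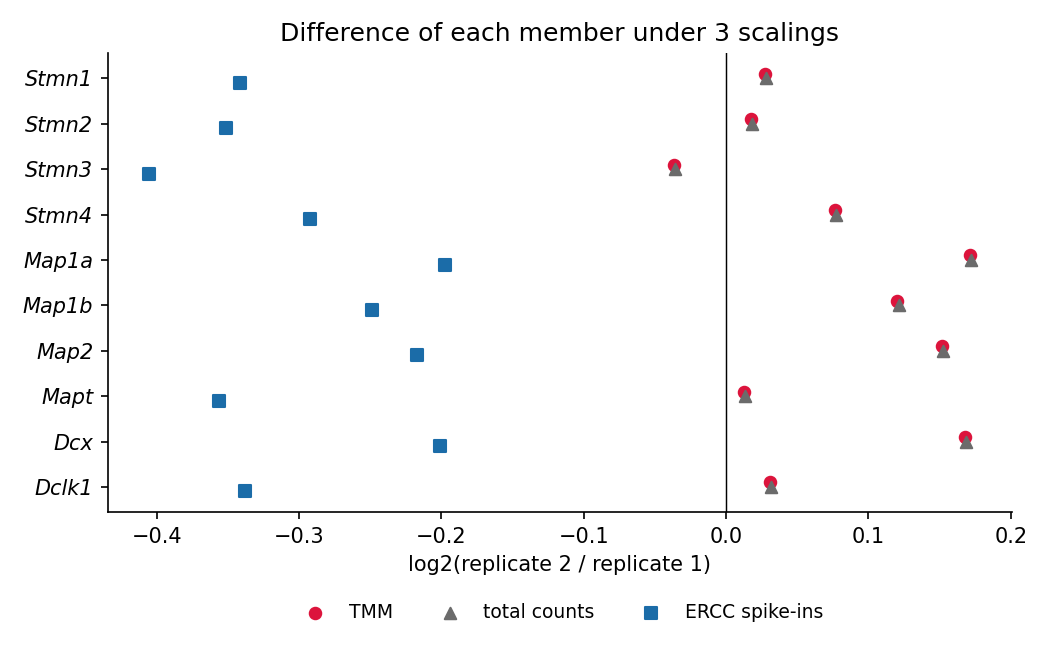
The log2 ratio of replicate 2 over replicate 1 for each member after scaling by TMM (circles), total counts (triangles) or ERCC spike-ins (squares). TMM and total counts lie together, with Stmn3 at -0.04 as the 1 value below 0, and spike-in scaling moves all 10 to between -0.41 and -0.20.

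Other genes of the microtubule system were grouped in lists by known function. Of 16 further structural microtubule-associated proteins, all at 1 TPM or more, 1 was higher and 2 were lower in replicate 2 by the exact binomial test. Tppp3, a tubulin polymerisation promoter, led at 152 and 132 TPM, and Map7d1, which recruits kinesin, stood at 117 and 122 TPM. Both were below Map1b, Map2 and Mapt in each library, and above Map1a at 8.32 and 11.6 TPM.

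Of 6 further doublecortin family genes, 5 had enough counts to test and 2 were higher. Dclk2, the close relative of Dclk1, stood at 60.9 and 71.2 TPM, and the next, Dcdc2a, at only 1.68 and 2.87 TPM. Among the family genes listed here, the RNA in this tissue lay almost wholly in Dcx, Dclk1 and Dclk2.

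The list of plus end proteins, many of which track growing tips, held 17 genes, of which 6 were higher and 0 lower. Mapre1, encoding EB1, stood at 296 and 341 TPM, and Mapre2 at 139 and 164 TPM. Severing and depolymerising enzymes numbered 11, with 0 called in either direction by the exact binomial test or by edgeR, with 2 and 0 genes at an unadjusted p below 0.05. Kif2c, a depolymerising kinesin of dividing cells, stood at 45.3 and 45.6 TPM, and Katna1, a katanin subunit, at 42.1 and 39.0 TPM. These enzymes together reached 277 and 276 TPM, far below Stmn1 alone.

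Kinases and phosphatases that act on the members numbered 18, with 3 higher and 2 lower. Gsk3b, a tau kinase, stood at 113 and 117 TPM, and Ppp2ca, the catalytic subunit of a phosphatase that acts on tau, at 100 and 102 TPM. By edgeR's exact test, 0 genes of these 5 lists were called and 0 had an unadjusted p below 0.05. The exact binomial counts above stand against a background of 10.7% higher and 9.68% lower over all genes. That background includes genes with few counts. Of the 5975 genes with 2515 or more counts over both libraries, 34.0% were called in either direction. The lists were not matched for depth to either background.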

How the data were processed

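Total RNA was measured in 2 libraries of 1 group. The authors deposited 1 gene and 1 transcript table per library on mm10. The deposited expected counts are estimated fragments per gene or transcript, and the deposited TPM and FPKM values, per the file headers, are corrected for transcript length and library. The percent share of each transcript in its gene's TPM was deposited beside them. The accompanying notes name GENCODE M4; aligner, quantifier and strand setting: not given in the sources used here. Names, exons and coding sequences were taken from GENCODE M21 (mm10 too) through the Ensembl identifier (42462 of 43346 genes), and promoters from RefSeq (GRCm38.p6).

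Members, gene lists and tests were chosen with earlier results of these data known. All 10 members are named, each of their transcripts at a mean share of 10% or more (others where a sum or exon rests on them), and of each other list the 2 genes of highest mean TPM and those called by edgeR; parts of this rule are given as counts. Other coding parts than the longest Map2 exon and the Dclk1 ends were chosen after seeing the annotation, and shares by counts after seeing the data. A part counted as held where a coding sequence covered 50% of its bases.

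Expected counts were rounded; genes with 10 or more over both libraries were scaled by TMM (edgeR 4.0.16, R 4.3.3) and tested gene by gene with scipy 1.17.1 (exact binomial, two-sided) with Benjamini-Hochberg adjustment over all 19209 genes, threshold 0.05. The edgeR exact test used a common dispersion from an intercept-only design over the same 2 libraries, since 1 group leaves no other source of spread. Library sizes and tests used Ensembl genes; numbered entries that name no gene held 0.000107% and 0.000114% of counts. Both tests were tested on simulated data. Counting error is not the whole error, since amplified fragments are not independent molecules. The binomial p-values set the difference between these 2 libraries against counting error alone. Those of edgeR set it against a dispersion estimated from the same 2 libraries. One planned coding part is not reported here.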

Additional observations from a re-analysis of the deposited data

How the results depend on the processing

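Levels kept their order under FPKM and with spike-ins left out of TPM. Under posterior mean TPM, and in replicate 1 alone, 2 members (Dcx and Mapt) changed places; leaving out either library gave 0 to 2. With 2 libraries, leaving out 1 moves a mean by less than the SD by construction, so it tests little. No paired analysis was possible because the series has 1 group.

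The between-library count fell from 3921 to 301 with edgeR's dispersion, and members called from 5 to 0. ERCC scaling gave 13010 genes and 10 members by the exact binomial test, and 62 genes by edgeR, whose dispersion then also holds the shift between libraries. This scaling moved the median log2 ratio of all genes to -0.37, and with that shift 9 members turned direction, to log2 ratios of -0.34 (Stmn1), -0.35 (Stmn2), -0.29 (Stmn4), -0.20 (Map1a), -0.25 (Map1b), -0.22 (Map2), -0.36 (Mapt), -0.20 (Dcx) and -0.34 (Dclk1). DESeq2 size factors, total counts and no filter on low counts kept 5 members called.

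Coding transcripts alone gave 14.1% for the longest Map2 exon. Shares by expected counts, added after seeing the data, gave 19.6% for that exon and 51.2% for the Dclk1 kinase end; 8 of 10 leading transcripts were those by TPM, all but Mapt and Dcx. A 90% requirement gave 39.9% for the kinase end, as Dclk1-202 then no longer holds it. At 5 and 20 percentage points, 2781 and 218 genes shifted, against 1085 at 10 points. The depth of single exon junctions is unknown in these tables, which limits every isoform share.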
